A study of Mus musculus with 96 samples.

Results

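The genes of the cytosolic ribosomal proteins were followed through every deposited table of a study of irradiation and high fat diet in C57Bl/6 mice. Members were the rows whose gene symbol began with Rpl or Rps and a number, or was Rplp0 to Rplp2 or Rpsa, leaving out pseudogene symbols and the Rps6 kinases. This rule found 194 of the 40336 rows of the 14 tables, for 56 genes: 13 rows of RNA, 6 rows of methylated DNA capture and 175 rows of bisulfite sequencing. RefSeq has 89 protein-coding genes of this pattern, of which 77 are structural proteins of the ribosome (31 of the small 40S subunit, 46 of the large 60S subunit) and 12 are paralogs or other genes. The 56 listed genes comprised 53 structural genes and the paralogs Rpl7l1, Rpl22l1 and Rps27l. The other 24 structural genes, among them Rpsa, Rps3, Rpl3 and Rpl11, had a row in no table.

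Per the labels, irradiated mice and control mice ate either a high fat diet or chow. Satellite cells are stem cells of skeletal muscle. Their RNA was sequenced, and their DNA was read by MBD sequencing (capture of methylated DNA on a methyl-binding domain) and by RRBS (reduced representation bisulfite sequencing of MspI fragments), each from 6 irradiated high fat, 6 irradiated chow, 6 control high fat and 6 control chow samples. RRBS alone was made of the stromal vascular fraction, the mix of cells left once adipocytes are removed from fat tissue, from 7 irradiated high fat, 4 irradiated chow, 7 control high fat and 6 control chow samples. The sources used here give no sex, age, radiation dose or time after irradiation, and the labels do not tie samples to animals. The RNA and MBD p-values therefore measure only the spread between samples, which may be technical. What the RRBS p-values measure is not given. The tables hold the authors' comparison statistics and no value of a single sample, so neither values by sample nor standard deviations can be given, and the depth behind each value is unknown.

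Ribosomal proteins are made in equal amounts and assemble with ribosomal RNA in the nucleolus, so their genes are expressed together at high levels in growing cells. In mammals their mRNAs carry a terminal oligopyrimidine (TOP) tract, an unbroken run of C and T that begins at the first transcribed base and places their translation under control of the kinase mTOR through the RNA-binding protein Larp1. Their promoters are CpG-rich, usually lack a canonical TATA box and are commonly bound by the ETS factor GABP, by YY1 and by Sp1. A quiescent satellite cell makes few ribosomes, and ribosome production rises when it is activated to divide.

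The start sites of the genes that the authors list with lower RNA in irradiated mice at an adjusted p under 0.1 are shown first (of those shown, only Rpl35 passed 0.05), because the tract at the start is the feature that the mRNAs of the family share. Each sequence runs from 20 bases before to 20 bases after the RefSeq start (GRCm38.p6, the assembly of build mm10), 5′ to 3′ on the gene's strand. Capitals mark the longest unbroken run of C and T that touches positions -5 to +5, where it has at least 5 bases.
Rpl35, chr2:39005112-39005151, minus strand: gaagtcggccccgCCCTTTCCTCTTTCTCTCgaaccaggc
Rpl15, chr14:18270967-18271006, minus strand: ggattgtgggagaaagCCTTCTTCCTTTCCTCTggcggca
Rpl34, chr3:130730318-130730357, minus strand: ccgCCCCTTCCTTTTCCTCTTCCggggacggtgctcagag
Rps18, chr17:33955646-33955685, minus strand: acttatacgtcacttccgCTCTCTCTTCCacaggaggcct
Rpl28, chr7:4792945-4792984, plus strand: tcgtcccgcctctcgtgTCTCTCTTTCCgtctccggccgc
Rps27, chr3:90213629-90213668, minus strand: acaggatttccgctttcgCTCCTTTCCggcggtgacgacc
Rps15, chr10:80292411-80292450, plus strand: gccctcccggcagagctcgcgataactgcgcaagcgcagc
Rps19, chr7:24884656-24884695, plus strand: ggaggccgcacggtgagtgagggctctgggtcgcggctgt
Rpl26, chr11:68901546-68901585, plus strand: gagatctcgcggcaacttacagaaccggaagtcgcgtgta
Rpl36a, chrX:134585634-134585673, plus strand: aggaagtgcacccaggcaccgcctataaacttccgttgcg
Rpl37a, chr1:72711240-72711279, plus strand: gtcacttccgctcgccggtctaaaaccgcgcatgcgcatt

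Of the 13 genes listed in RNA, 11 had a RefSeq promoter sequence. Runs of 18 bases in Rpl35, 17 in Rpl15, 20 in Rpl34, 11 in Rps18, 11 in Rpl28 and 9 in Rps27 crossed the start, while Rps15, Rps19, Rpl26, Rpl36a and Rpl37a had runs of 3 or 4 bases at these annotated starts. The RefSeq start lay 0 to 38 bases from the start in the RNA table for the genes with short runs, and 0 to 493 bases for the others. Whether a missing tract reflects where the start was annotated was not tested. The promoter sequences used cover 32851 mouse starts of 27025 genes, more than the 21900 RefSeq protein-coding genes. They are therefore not limited to protein-coding genes. Of all these starts, 9.38% had a run of at least 8 bases touching positions -5 to +5. Over the family, such a run was at 26 of 81 annotated starts of 69 genes (32.1%). That count was 6 of 14 starts (42.9%) in the genes listed in RNA and 20 of 67 (29.9%) in the rest of the family, and no test was made.

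The 300 bases around the start (250 before, 50 after) were also searched for short motifs on both strands. The ETS motif (CCGGAA or TTCCGG) was in 37 of the 81 member promoters (45.7%), against 14.9% of all promoters. The YY1 motif (AAGATGG or CCATCTT) was in 12 members (14.8%), against 6.34% of all. The GC box (GGGCGG or CCGCCC), the core of Sp1 sites, was in 47 members (58%), against 35.7% of all. The TATA motif (TATAAA or its complement) was in 8 members (9.88%), against 13.6% of all. The MspI site CCGG, which RRBS needs and which overlaps the ETS motif, was in 70 members (86.4%), against 52.8% of all, and the median number of CG pairs was 21 in members and 7 over all promoters. These are matches of letters only, and the promoters counted as all are not limited to protein-coding genes. RRBS reads only DNA near an MspI site.

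In satellite cells of irradiated mice, the RNA of every listed ribosomal protein gene was lower than in controls, by a small amount. Over both diets, 13 of the 89 pattern genes were in the authors' deposited table at an adjusted p under 0.1, all 13 were lower, and 2 passed 0.05, which is the threshold for a call here. Among all 12371 genes tested by the authors (edgeR likelihood ratio test), 13.7% were listed at 0.1 and 7.05% were listed as lower, while 6.68% were called at 0.05 and 3.64% were called lower. The listed members were 16.9% of the 77 structural genes (5 of 31 in the 40S and 8 of 46 in the 60S), close to the 13.7% of all genes listed in either direction and above the 7.05% listed as lower. At 0.05 the order was the other way: the 2 called, of 77, were a smaller share than the 3.64% of all genes called lower. The 12 pattern genes that are not structural had 0 listed. Which of the 64 unlisted structural genes were tested is not given, so their values are not known. In bulk samples, fewer cells of a type and less RNA per cell cannot be told apart.

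The deposited fold change over both diets equals the sum of the chow and the high fat diet effects (13 genes present in all 3 irradiation tables, largest deviation 3.11e-15), so it was divided by 2 and is given as a mean over diets. Its standard error (SE) was approximated from the deposited likelihood ratio. Fold changes are irradiated over control.

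Of the large subunit, Rpl35 fell. Its protein lies at the exit of the peptide tunnel, where signal recognition particle docks. The mRNA had a mean log2 fold change of -0.29 (approximate SE 0.0989, approximate 95% interval -0.49 to -0.10), or 18.4% less RNA, with an edgeR adjusted p of 0.0474 in the authors' deposited table.

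Of the large subunit, 6 genes were listed but did not pass 0.05. Rpl37a, a zinc-binding protein of the subunit core, had a mean log2 fold change of -0.24 (approximate SE 0.095), and Rpl26, which sits at the tunnel exit and also binds p53 mRNA, had -0.24 (approximate SE 0.0953). Rpl28, which has no counterpart in budding yeast, had -0.23 (approximate SE 0.0838), and Rpl15, which binds the core of the large ribosomal RNA, had -0.23 (approximate SE 0.0895). Rpl36a, which reaches the exit site for transfer RNA, had -0.22 (approximate SE 0.0872), and Rpl34 had -0.22 (approximate SE 0.0871). Their edgeR adjusted p in the authors' deposited table lay between 0.064 (Rpl28) and 0.0985 (Rpl34).

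Of the small subunit, 5 genes were listed, none under 0.05. Rps15, which reaches towards the decoding site, had a mean log2 fold change of -0.27 (approximate SE 0.0952). Rps19, the protein most often mutated in human Diamond-Blackfan anemia, had -0.25 (approximate SE 0.101), the zinc-finger protein Rps27 had -0.25 (approximate SE 0.0949) and Rps18, at the bridge between the subunits, had -0.24 (approximate SE 0.0951). Their edgeR adjusted p in the authors' deposited table lay between 0.0615 (Rps15) and 0.0986 (Rps18). Across both subunits the 13 values span -0.29 to -0.22, a range narrower than a single approximate SE, so no order among the genes can be read.

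**Figure D1:**
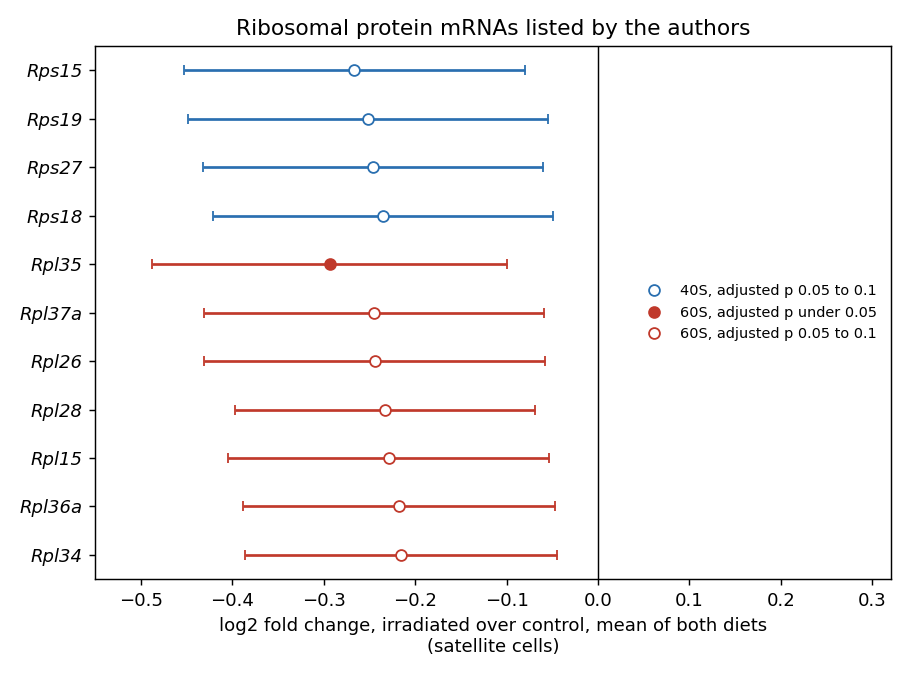
Mean log2 fold change over both diets (x axis) of 11 listed ribosomal protein mRNAs in satellite cells, irradiated over control, with approximate 95% intervals computed from the authors' likelihood ratios. All 11 points lie between -0.29 and -0.22, and the filled point (Rpl35) has an adjusted p under 0.05.

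A gene enters the table only past the adjusted p of 0.1, so members with smaller changes are not seen. The listed members were abundant mRNAs, at 8.02 (Rpl36a) to 9.52 (Rpl15) log2 CPM (read counts scaled to library size, on a log2 scale) in the authors' deposited table, where the median over all 1695 listed genes was 4.95. Their median absolute change of 0.24 was below the 0.42 of all listed genes. Other listed genes in the same range of abundance also leaned one way: 67 of 87 (77%) were lower in irradiated mice. Of the 339 other listed genes with a change no larger than that of Rpl35, 217 (64%) were lower. The 13 genes were measured in the same libraries and are not independent of each other.

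**Figure D2:**
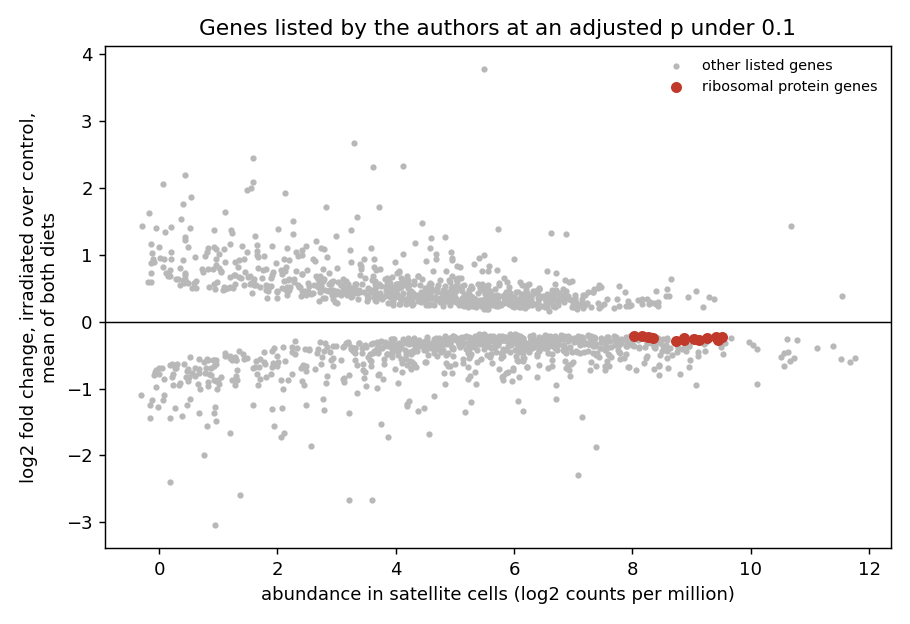
Mean log2 fold change over both diets (y axis) against abundance in log2 CPM (x axis) for the 1695 genes the authors list at an adjusted p under 0.1. The 13 ribosomal protein genes (red) sit together at 8.02 to 9.52 log2 CPM and just below 0, at the edge of what was listed.

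Taken by diet, no ribosomal protein gene was listed. The chow table called 155 genes (1.25%) at 0.05 and listed 322 (2.6%) at 0.1, and the high fat diet table called 8 (0.0647%) and listed 18 (0.146%), with 0 of 89 pattern genes in either by the authors' edgeR test, so the size of the change within a diet is not known for any member. Whether the change differed between diets was not tested. The comparison of diets within irradiated mice listed 1 gene (0.00808%), which was not a ribosomal protein gene. How many members had an unadjusted p under 0.05 in these tables, or a call by another tool, cannot be given from the listed genes.

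The ribosomal proteins whose symbols fall outside the pattern were read as a check on the rule. The authors' deposited table listed Fau, a ubiquitin-like fusion that releases small subunit protein 30, at a mean log2 fold change of -0.28 (approximate SE 0.099, edgeR adjusted p 0.0553). Mitochondrial ribosomal proteins, made in the cytosol for a separate ribosome, were listed for 7 of 78 genes (8.97%, against 13.7% of all tested genes, and 7.05% listed as lower), all 7 lower and none under 0.05, with mean log2 fold changes from -0.30 (Mrpl30) to -0.21 (Mrps17). The listed genes were Mrps14, Mrps17, Mrps31, Mrpl17, Mrpl30, Mrpl41 and Mrpl51.

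Of 116 genes of ribosome assembly and RNA polymerase I, 5 were listed, all lower, and 1 passed 0.05. Ddx49, a nucleolar RNA helicase, fell with a mean log2 fold change of -0.24 (approximate SE 0.0782, edgeR adjusted p 0.0352 in the authors' deposited table). Noc3l, Rrp36, Utp11l and Tsr2, the chaperone of Rps26, had mean log2 fold changes of -0.22, -0.25, -0.21 and -0.24. The 4.31% of this list that was listed is below the 7.05% of all tested genes listed as lower. Which genes of this list, of the mitochondrial list or of the control list below were tested is not given. Their shares are therefore of whole lists, tested or not.

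Of 38 genes that control ribosomal protein synthesis, 2 fell, 3 rose and 1 more was listed as higher, so that 15.8% were listed, against 13.7% of all tested genes. Eif4ebp1, the translation repressor that mTOR phosphorylates, fell with a mean log2 fold change of -0.36 (approximate SE 0.114, edgeR adjusted p 0.0328 in the authors' deposited table). Rps6ka2, a ribosomal S6 kinase of the ERK pathway, fell with -0.35 (approximate SE 0.107, edgeR adjusted p 0.0279 in the same authors' deposited table). Eef2k, the kinase that slows elongation, rose with 0.49 (approximate SE 0.154, edgeR adjusted p 0.0328 in the authors' deposited table). Pdcd4, an inhibitor of the initiation helicase and an S6 kinase target, rose with 0.28 (approximate SE 0.0887, edgeR adjusted p 0.0312 in the authors' deposited table), and Rictor, a subunit of mTOR complex 2, rose with 0.27 (approximate SE 0.0928, edgeR adjusted p 0.0486). Rps6ka6 had 0.46 with an edgeR adjusted p of 0.0775 in the authors' deposited table. Mtor, Rptor, Larp1, Myc, Gabpa, Yy1 and Sp1 were not listed.

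Markers of several cell types were listed in the same comparison, in which 6.68% of all tested genes were called at 0.05 and 3.64% were called lower. On chow, 1.25% were called. The first list mixes satellite cell and myoblast markers and does not tell these apart. Of 12 satellite cell and myoblast markers, 4 fell: Myog (-0.58), Cdh15 (-0.46), Ncam1 (-0.41) and Chrna1 (-0.40, mean log2 fold changes, edgeR adjusted p 0.00473 to 0.0311). Itga7 was listed at -0.26 (edgeR adjusted p 0.0941). These 5 stood at 9.10 to 11.1 log2 CPM in the authors' deposited table. The other 7 (Pax7, Myf5, Myod1, Vcam1, Cxcr4, Des and Sdc4) were not listed, so their levels and changes are not known. Of 8 fibroblast markers, Thy1 (-1.37), Dcn (-1.29) and Col1a2 (-1.18) fell, and Col1a1 was listed at -1.29 (edgeR adjusted p 0.0536, authors' deposited table). Of 6 leukocyte markers, Mrc1 (-0.59) and Itgam (-0.79) fell, and of 4 adipocyte markers, Scd1 (-0.46). Of 5 perivascular markers, Acta2 (-0.93) and Mcam (-0.56) fell, Rgs5 (0.94) rose, and Cspg4 was listed at 0.68 (edgeR adjusted p 0.0806). Of 6 mature muscle markers, Ckm (-1.16) fell and Myh2 (3.79) rose. Of 6 endothelial markers 0 were listed over both diets, and Cdh5 and Pecam1 fell on chow (edgeR adjusted p 0.0158 and 0.0498). Thy1, Col1a2, Mcam and Ckm also fell on chow (edgeR adjusted p 0.000313 to 0.0441). Abundance was low for Cdh5, Pecam1, Thy1, Itgam and Mrc1, at 0.327 (Cdh5) to 1.63 (Mrc1) log2 CPM. Levels per group are not in the tables, and the part of these shifts in the ribosomal protein values was not tested.

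Some ribosomal protein genes have many processed pseudogenes and close paralogs (Rps27 and Rps27l, Rpl36a and Rpl36al), and no source used here gives how the authors counted reads that map to several places. The values of single genes are uncertain by that much.

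In the MBD data, 6 rows carried a ribosomal protein symbol. They reduce to 3 genes of the family under their own symbols, and Rpl32l under that of Rpl32. The MBD tables do not name the contrast or which side is on top, so signs are as coded. The promoter table listed Rps24 (chr14:24489681-24491680) with a log2 fold change of -0.62 and an unadjusted p of 2.09e-05 (authors' edgeR test and deposited table), once for each of a pair of RefSeq transcripts. Rps24 is a small subunit protein also mutated in Diamond-Blackfan anemia. It was the only gene of the family under its own symbol in the promoter table, where its rows ranked 20 by p. Of the 373 listed promoters, 90 (24.1%) were above 0, so a negative sign was the common one.

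The exon table, in which 66.2% of 2455 regions were above 0, held Rpl5 and Rps3a1. Rpl5, which carries the 5S ribosomal RNA and binds Mdm2, had a log2 fold change of 1.04 over chr5:107900528-107902546 (unadjusted p 4.37e-05 by edgeR, authors' deposited table). Rps3a1 had -0.43 over chr3:86137940-86138882 (unadjusted p 0.00429 by edgeR, authors' deposited table). The symbol Rpl32 stood beside a promoter at chr10:20207439-20209438 (-0.63) and an exon at chr10:20208439-20209030 (-0.46) of the authors' deposited tables, but the accession in those rows belongs to Rpl32l, whose coordinates they match, and the gene Rpl32 lies on chromosome 6 (chr6:115805514-115808743). These rows were therefore not counted for Rpl32. The symbol Rpl32l also fits the pattern of the family. The tables of CpG islands (84 regions, 81% of them above 0) and CpG shores (190 regions, 34.2% of them above 0) listed 0 regions of the family.

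RRBS listed small regions at the starts of many more members. Of the 89 pattern genes, 49 (55.1%) had a listed region within 1 kb of the start in at least 1 of the 6 tables, against 27.9% of 21900 RefSeq protein-coding genes. In the stromal vascular fraction this held for 31 genes (34.8%), against 16.9% of all, and in satellite cells for 35 (39.3%), against 20.4% of all. Which genes were covered is not given, and the family's greater number of MspI sites and CG pairs, shown above, bears on that count. The part of coverage in the higher share was not tested.

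Such a region was listed in both cell types for 17 genes (19.1%, against 9.31% of all genes), among them Rpl13, Rpl14, Rpl15, Rpl19, Rpl23a, Rpl27a, Rpl28, Rpl31, Rpl32, Rpl39, Rplp0, Rps6, Rps15, Rps18 and Rps24. Rpl7l1, Rpl17, Rpl22l1, Rpl36, Rpl36a, Rplp2, Rps7, Rps10, Rps13, Rps19, Rps26, Rps27a, Rps27l and Rps29 had one in the stromal vascular fraction alone. Rpl4, Rpl6, Rpl7a, Rpl8, Rpl10, Rpl13a, Rpl21, Rpl22, Rpl24, Rpl27, Rpl34, Rpl35, Rpl37, Rps3a1, Rps14, Rps15a and Rps20 were among those with one in satellite cells alone. By subunit, 13 of 31 small subunit genes (41.9%) and 15 of 46 large subunit genes (32.6%) were listed in the stromal vascular fraction, and 10 of 31 (32.3%) and 25 of 46 (54.3%) in satellite cells, a difference that was not tested.

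The RRBS tables compare an unnamed group 1 with an unnamed group 2 under the headings radiation, diet and interaction. A positive difference means a higher median methylation in group 1, in percentage points. The 3 tables of a cell type come from the same set of libraries and may share samples of a group, so their values are given side by side with no count of agreement. No source used here gives the test behind the deposited median p or the spread it measures, so the differences are described as the authors' estimates and no test was added.

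The differences of member regions fell into a few narrow bands. In the stromal radiation table, 30 of the 40 member regions within 1 kb differed by less than 5 points, 8 were higher in group 1 by 32.6 to 42.7 points, and 2 were lower in group 1 (Rpl31 and Rpl17). In the stromal diet table, 12 of 40 differed by less than 5 points, 8 were higher in group 1 by 35.5 to 43.1 points, and 20 were lower in group 1, with differences from -21.4 to -14.0 points.

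In satellite cells the bands were nearly symmetric. The radiation table held 16 of 37 regions under 5 points, 11 higher in group 1 by 23.1 to 34.4 points and 10 lower in group 1, with differences from -34.4 to -13.1 points. The diet table held 19 of 41 under 5 points, 11 higher in group 1 by 19.5 to 34.5 points and 11 lower in group 1, with differences from -34.6 to -5.52 points.

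The same bands were present in regions of all genes. In the stromal radiation table, the median of the differences of at least 5 points was 38.02 in members and 37.86 over all regions within 1 kb of a start, and the median of those of -5 points or lower in the stromal diet table was -19.6 in members and -19.4 over all. In satellite cells the medians were 30.7 in members and 33.0 over all on the positive side of both tables. The shares of regions under 5 points were 43.2% of member regions and 47.4% of all regions in the satellite cell radiation table, and 46.3% and 51.3% in its diet table. Among the radiation and diet tables, the stromal diet table had the widest gap: 50% of member regions and 33.1% of all regions were at -5 points or lower, while 20% of member regions and 26.3% of all were at 5 points or more.

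**Figure D3:**
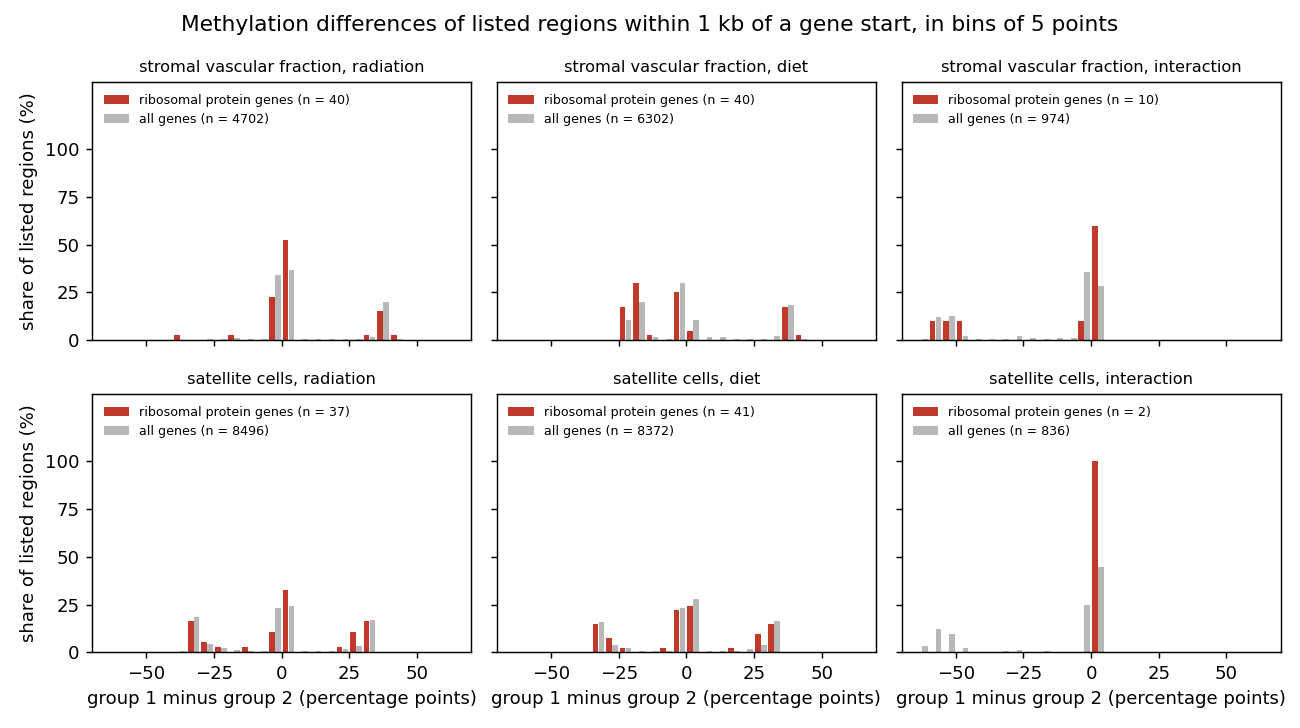
Share of listed regions within 1 kb of a gene start in percent (y axis) by difference in methylation, group 1 minus group 2 in percentage points, in bins of 5 points (x axis), for ribosomal protein genes (red) and all genes (grey), by cell type and table. Red and grey bars stand at the same places, near 0, between 35 and 45 or between -25 and -15 in the stromal diet panel, and on both sides of 0 out to 35 and -35 in the satellite cell radiation and diet panels. In the satellite cell interaction panel both red regions are near 0.

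Counted by sign, 29 of 40 member regions (72.5%) in the stromal radiation table were higher in group 1, against 60.7% of all 5493 listed regions, and 11 of 41 (26.8%) in the stromal diet table, against 43.2% of 7997. In the stromal interaction table, a share of 60% (6 of 10) was above 0, against 32.2% of 1207, and in that of satellite cells, 2 of 2, against 44.8% of 1057. These positive interaction differences were near 0, at 0.0440 to 0.156 points in the stromal table and 0.0666 and 0.113 points in that of satellite cells. The 3 stromal interaction regions past 5 points were all negative. In satellite cells, 24 of 38 (63.2%) in the radiation table were higher in group 1, against 48.1% of 9827, and 23 of 44 (52.3%) in the diet table, against 51.9% of 9617. Differences of at least 5 percentage points made up 10 of 40 member regions for radiation, 29 of 41 for diet and 3 of 10 for the interaction in the stromal vascular fraction, against 33.4%, 64.4% and 43% of all listed regions. In satellite cells they made up 22 of 38 for radiation, 25 of 44 for diet and 0 of 2 for the interaction, against 54.5%, 50.2% and 34.4% of all. The median absolute difference of members was 0.357 points for radiation and 19.3 for diet in the stromal vascular fraction, and 22.1 for radiation and 11.2 for diet in satellite cells. Regions of the same gene share libraries and often neighbouring CG pairs.

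**Figure D4:**
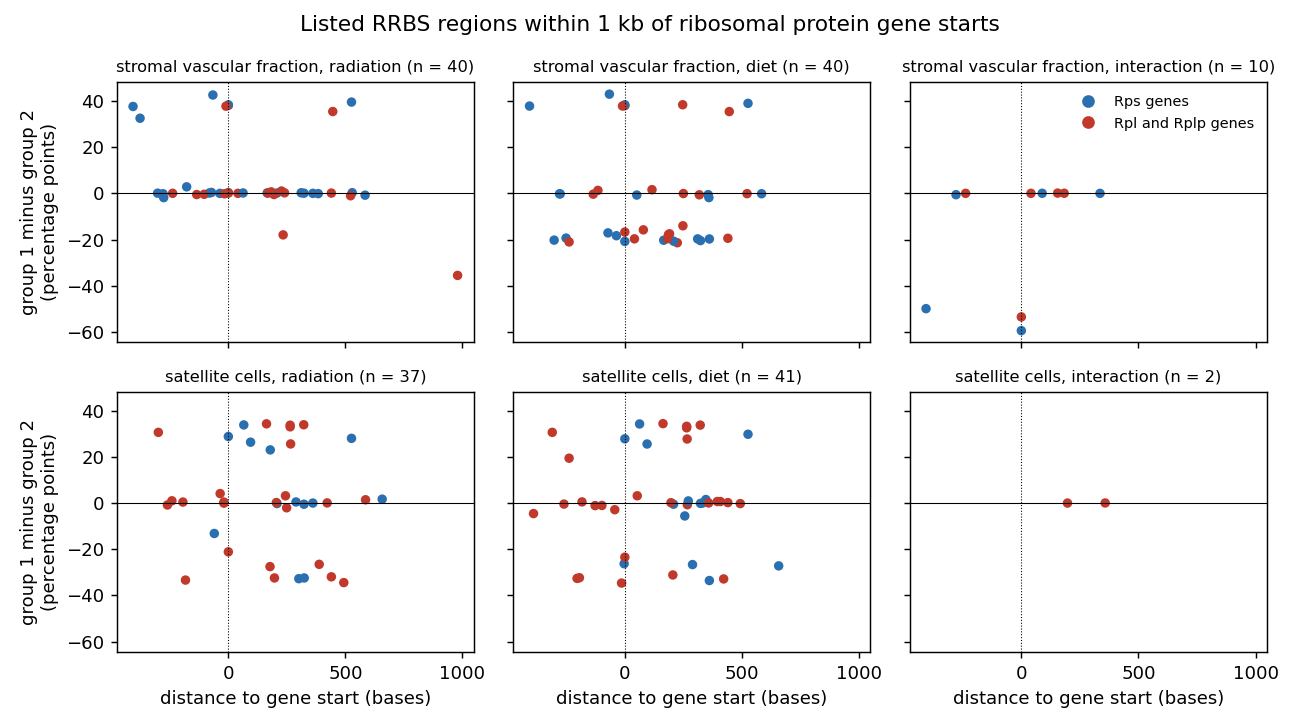
Difference in methylation, group 1 minus group 2 in percentage points (y axis), against distance from the gene start in bases (x axis) for the listed regions within 1 kb of ribosomal protein gene starts, by cell type and table. Points form bands near 0, near 40 and near -20 in the stromal diet panel, and the satellite cell radiation and diet panels hold points on both sides of 0 before and after the start. The point farthest from a start is that of Rpl31 at 979 bases.

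Regions at or just before a start are shown next, since there the listed CG pairs lie among the promoter motifs. Each sequence runs from 100 bases before to 20 bases after a RefSeq start (GRCm38.p6), 5′ to 3′ on the gene's strand, and capitals mark the bases inside the listed region, that of the diet table for Rpl34 (satellite cells), Rps15 and Rpl28 (stromal vascular fraction) and of the radiation table for Rpl31 and Rps26 (stromal vascular fraction).
Rpl34, chr3:130730379-130730498, minus strand: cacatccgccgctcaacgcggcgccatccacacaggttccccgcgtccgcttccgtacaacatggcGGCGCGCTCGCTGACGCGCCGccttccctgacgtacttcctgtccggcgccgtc
Rps15, chr10:80292331-80292450, plus strand: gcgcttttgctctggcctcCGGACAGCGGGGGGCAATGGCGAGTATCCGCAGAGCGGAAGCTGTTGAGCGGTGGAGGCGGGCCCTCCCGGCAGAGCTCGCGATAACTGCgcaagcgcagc
Rpl28, chr7:4792865-4792984, plus strand: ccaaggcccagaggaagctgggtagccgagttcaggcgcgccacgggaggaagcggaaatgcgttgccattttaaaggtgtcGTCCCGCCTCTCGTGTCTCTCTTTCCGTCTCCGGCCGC
Rpl31, chr1:39367751-39367870, plus strand: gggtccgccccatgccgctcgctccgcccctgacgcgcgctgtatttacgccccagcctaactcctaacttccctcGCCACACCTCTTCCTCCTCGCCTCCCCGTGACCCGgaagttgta
Rps26, chr10:128626487-128626606, minus strand: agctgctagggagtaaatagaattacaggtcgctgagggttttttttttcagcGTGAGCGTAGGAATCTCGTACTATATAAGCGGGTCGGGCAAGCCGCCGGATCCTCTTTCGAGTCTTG
The start used for Rpl34 here (130730398) is another RefSeq start than the one shown above (130730337), and its listed region ends 14 bases before it, while the other 4 regions reach the start. The capitals hold 6 CG pairs in Rpl34, 10 in Rps15, 5 in Rpl28, 3 in Rpl31 and 7 in Rps26. In Rpl28 and Rpl31 the listed region covers the run of C and T that crosses the start, and in Rps26 a run that begins just after it.

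Among these, Rps26, which lines the mRNA exit channel, had the lowest p of the family in the stromal radiation table. Over chr10:128626462-128626553 the authors' deposited table gave a difference of 38.4 points under radiation (median p 1.8e-13). For diet it also gave 38.4 points (authors' deposited table, median p 3.2e-15). The interaction table gave -59.5 points there (authors' deposited table), the largest absolute difference of any member. The sources used here do not give what the groups of an interaction stand for.

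Rpl31, a protein of the tunnel exit, had the same order of signs at its start (chr1:39367827-39367861). The authors' deposited tables gave 38.2 points for radiation, 38.1 for diet and -53.5 for the interaction. Rps19, 407 bases before its start (chr7:24884228-24884303), had 37.7 points for radiation and 37.9 for diet, and -49.9 points in the interaction table at its first base (authors' deposited tables). These 3 regions were the only members of the stromal interaction table past 5 points. Over all 974 regions within 1 kb in that table, 35.5% were at -5 points or lower with a median of -53.6 points, so values of this size were common there.

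The other regions that were higher in group 1 by more than 35 points in the stromal vascular fraction were at Rps29, Rps6, Rpl39, Rpl36a and Rpl22l1. Rps29, a zinc-binding protein next to the decoding site (chr12:69159252-69159298), had the largest member differences of both tables, at 42.7 points for radiation and 43.1 for diet (authors' deposited tables). Rpl39, which lines the peptide tunnel (chrX:37085194-37085204), had 37.8 points for radiation and 37.9 for diet (authors' deposited tables). Rpl36a (chrX:134586045-134586100) had 35.5 points in both (authors' deposited tables). The paralog Rpl22l1 (chr3:28805754-28805758) was listed with such a difference for diet alone, at 38.5 points with the lowest p of the family in that table (authors' deposited table, median p 5.7e-16).

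Rps6, the small subunit protein that S6 kinases phosphorylate, had the only member region with a difference past 5 points in the radiation and diet tables of both cell types. At chr4:86856835-86856841, 526 bases into the gene, the stromal differences were 39.6 points for radiation and 39.1 for diet. In satellite cells they were 28.1 points for radiation and 29.9 for diet (all from the authors' deposited tables). Nearer to the start (chr4:86857091-86857159), the stromal diet difference was -20.7 points and the stromal radiation difference 0.189 points (authors' deposited tables). Neighbouring regions of a single gene thus had opposite signs in the stromal diet table.

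Rplp0, the base of the ribosomal stalk, was listed at the same CG pairs (chr5:115559889-115559907) in both cell types. In satellite cells the difference was -31.9 points for radiation and 0.278 for diet, and in the stromal vascular fraction it was 0.160 points for radiation and -19.4 for diet (authors' deposited tables). So the large difference was in the radiation table of one cell type and in the diet table of the other. Another satellite cell region of Rplp0 (chr5:115559640-115559672) had it in the diet table, at -31.1 points, and not in the radiation table, at 0.29 points (authors' deposited tables).

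Regions listed in both cell types under the same heading gave no common direction. Of 8 overlapping pairs of member regions in the radiation tables, 4 had the same coded sign, against 51.6% of 1685 pairs over all genes, and of 10 in the diet tables, 6 had it, against 49% of 2116. With both differences at least 5 points, the count was 1 of 1 for radiation (Rps6) and 4 of 6 for diet, against 50.7% and 50.1% over all genes. Groups 1 and 2 are unnamed in both cell types and may not be the same.

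Regions that were lower in group 1 by about 20 points in the stromal diet table were at starts throughout both subunits. They included Rps15 (chr10:80292350-80292439, -20.8 points), Rps24 (chr14:24490770-24490847, -20.3 points) and Rps18 (chr17:33955282-33955318, -20.5 points) of the authors' deposited table. Rps13 and Rps10 had -20.2 and -19.3 points there, Rps7 had -18.3 and the p53-induced paralog Rps27l had -17.1. Of the large subunit, Rpl28, Rpl31, Rpl32, Rpl36, Rpl13, Rpl23a and Rpl27a were so, with differences from -21.4 points at Rpl31 to -14.0 points at Rpl13 (authors' deposited table).

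In the stromal radiation table Rps15, Rps24, Rps18, Rps13, Rps7, Rps27l, Rpl28, Rpl32, Rpl36 and Rpl27a were listed too, and no region of theirs reached 5 points, nor did any of Rps27a, Rplp2, Rpl14 and Rpl7l1. The exceptions that were lower in group 1 under radiation were Rpl31 979 bases past its start, at -35.5 points, and Rpl17, at -18.0 points (authors' deposited table).

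In satellite cells, differences near 30 points were found on either side. Of those higher in group 1, the authors' deposited tables gave Rpl35 (chr2:39004917-39004968) 34.4 points for radiation and 34.5 for diet. Rpl13, Rpl15, Rpl37, Rpl31, Rpl6, Rps20 at its start and Rps15a were higher in both tables, between 25.7 and 34.03 points (authors' deposited tables). Rps14 was so for radiation alone, at 23.1 points, and Rpl28 for diet alone, at 19.5 points (authors' deposited tables). Rpl15 here is listed 264 bases into the gene (chr14:18270632-18270722), at 33.1 points for radiation and 32.7 for diet.

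Of those lower in group 1, the satellite cell radiation table held Rpl22, the RNA-binding protein of the subunit surface, with -34.4 points at chr4:152326021-152326219, close in size to the largest member difference of that table, 34.4 points at Rpl35 (authors' deposited table). Rpl13a, Rpl14, Rpl4, Rpl23a, Rpl8, Rplp0, Rps3a1, Rps20 and Rps15a had differences from -33.3 points at Rpl13a to -13.1 points at Rps15a in that table. Its lowest p of the family went with a small difference, 0.505 points at Rpl21 (chr5:146833001-146833110, median p 3.1e-12, authors' deposited table). In the diet table Rpl34 had the largest difference of the family and the lowest p, with -34.6 points (chr3:130730412-130730432, median p 1.7e-14, authors' deposited table). Rps24, Rpl24, Rpl37, Rpl21, Rplp0, Rps3a1, Rps15 and Rpl8 had differences from -33.5 points at Rps24 to -23.4 points at Rpl8 there, and a further region of Rps3a1 had -5.52 (authors' deposited table).

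Rpl7a, Rpl10, Rpl19, Rpl27, Rpl27a, Rpl32, Rpl39 and Rps18 were listed in satellite cells with no difference of 5 points, the largest of these being -4.48 points at Rpl10. The interaction table held 2 member regions, of Rpl14 and Rpl22, with differences of 0.0666 and 0.113 points (authors' deposited table). Rpl37, Rps20 and Rps15a had regions of opposite sign within 1 kb of their starts. At Rpl8 the region at the start was lower in group 1 in both tables, at -21.1 points for radiation and -23.4 for diet (authors' deposited tables).

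The 5 regions farther than 1 kb lay 22204 to 273057 bases from the gene named for them (Rpl37a in the stromal diet table, Rpl38, Rplp1 and Rps24 in satellite cells). Their differences ran from -11.3 points at Rpl38 to 16.2 points at Rps24 (authors' deposited tables). Of the 170 member regions within 1 kb, 16 lay also within 1 kb of the start of another gene, such as Vps52 beside Rps18 and Med22 beside Rpl7a.

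**Figure D5:**
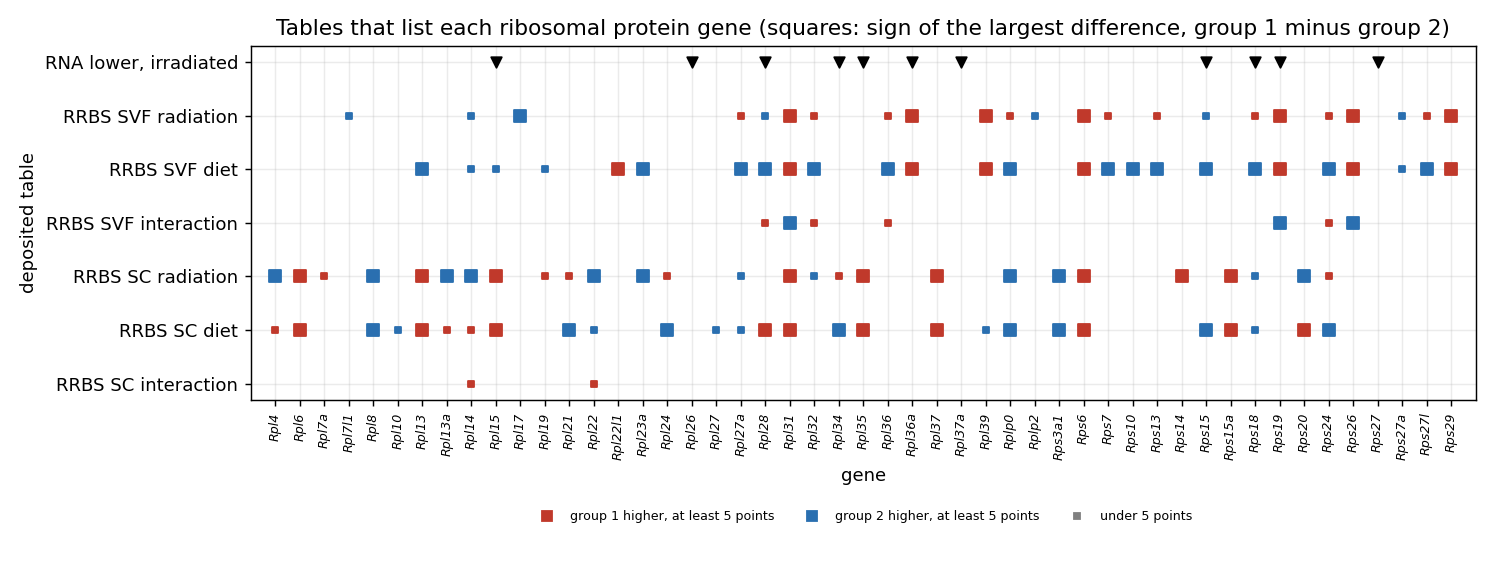
Tables (y axis) that list each ribosomal protein gene shown (x axis) in RNA or with an RRBS region within 1 kb of its start: black triangles mark lower RNA in irradiated mice, squares mark the sign of the largest difference of the gene in that RRBS table (red for higher in group 1, blue for higher in group 2, small under 5 points). The genes with a triangle (listed at an adjusted p under 0.1) are spread over genes with and without squares.

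The RNA and RRBS lists were set side by side in satellite cells, the cell type they share. Of the 13 genes listed with lower RNA, 7 (53.8%) had a listed satellite cell region within 1 kb, against 28 of the 64 other structural genes (43.8%), and the difference was not tested. In the radiation table, which heads the same treatment, those 7 were not alike. Among them, the group 1 minus group 2 difference was 34.4 points at Rpl35 and 33.1 at Rpl15, 0.0304 at Rpl34 and -0.431 at Rps18, while Rpl28 and Rps15 were listed for diet alone (authors' deposited tables). Rpl26 and Rps27 had no listed region in either cell type, and Rpl37a only the distant one. At Rps24, where both methods listed the satellite cell start, the RRBS regions at the start lie inside the MBD window, and the satellite cell differences there were 0.0767 points for radiation (chr14:24490956-24491042) and -33.5 points for diet (authors' deposited tables), while the gene was not listed in RNA.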

How the data were processed

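All 14 deposited tables hold comparison statistics made by the authors, 0 columns of single samples were used, and no model was refitted. Members and gene lists were chosen with earlier results of these data known, and counts over them are descriptions. The submitters' processing notes name build mm10 and CASAVA 1.8.2, featureCounts with edgeR for both RNA (aligned by TopHat2) and MBD (trimmed by Trimmomatic, aligned by Bowtie2, with Picard), and Bismark 0.14.4, cutadapt 1.8.3 and Bowtie2 2.2.6 for RRBS, after Trim Galore 0.4.0 for RNA and RRBS. No settings, and no test behind the RRBS regions, are known from the sources used here.

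The labels' protocols give stranded RNA libraries after removal of ribosomal RNA, MBD libraries from sonicated DNA on MethylMiner beads, and RRBS libraries from 200 ng of DNA cut with MspI. Per the file headers, the RNA tables give a log2 fold change and log2 CPM per gene, a likelihood ratio (a score with no fixed range), a p-value and an adjusted p-value. The deposited MBD fold change and p columns also hold notes below the regions and were read as scores after those lines were dropped. Of the RRBS tables, the deposited median p-value and the signed difference (a score printed in percentage points) were used; the levels of groups 1 and 2 were left out because the groups are unnamed.

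The number of genes tested (12371) was recovered from adjusted p, rank and p in all 4 RNA tables and tested on simulated data. The approximate SE was the absolute mean fold change divided by the square root of the likelihood ratio, with 1.96 SE for a 95% interval. A call was the authors' adjusted p under 0.05, and "listed" means in the table (adjusted p under 0.1 for RNA). Named genes were all members listed in RNA or MBD, RRBS members in at least 2 tables or at a promoter, the largest difference and lowest p of each table, and list genes under 0.1. RefSeq names, starts and promoter sequences are of GRCm38.p6. Scripts used Python 3.11.15, pandas 2.3.3 and matplotlib 3.10.9. Some genes and their values are not reported here, in text or figures, though counts over the family include them.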

Additional observations from a re-analysis of the deposited data

How the results depend on the processing

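Of 55 counts recomputed under another setting, 45 stayed within 1.5 times the reported count and 10 did not. Leaving the 13 RNA fold changes undivided changes their scale by construction and leaves the authors' adjusted p as it is. At the authors' threshold of 0.1, the RNA count over both diets was 13 in place of 2, and the counts on chow and on high fat diet stayed at 0. A fold limit of 1 (log2) left 0 of 3 MBD promoter rows and 1 of 3 exon rows, and an unadjusted p under 0.001 left 1 of 3 exon rows. A limit of 5 percentage points left 10 of 40 stromal radiation regions, 3 of 10 stromal interaction regions, 22 of 38 satellite cell radiation regions, 25 of 44 satellite cell diet regions and 0 of 2 satellite cell interaction regions. With 1 region per gene, 25 of 40 stromal radiation regions remained. Apart from the RNA count, these follow from fewer rows being kept. Counting only MBD rows whose accession belongs to the named gene, chosen after seeing the data, left 2 of 3 promoter rows and 2 of 3 exon rows. No paired analysis was possible because the tables hold no values of single samples, and for the same reason no replicate could be left out. Depth is unknown for every value.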
